A study of Mus musculus with 8 samples.

Results

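The cytosolic ribosomal protein genes were examined in livers of Me1 knockout mice and of their wild-type littermates. They were all genes on the array whose symbol, brought up to date, is Rpl or Rps followed by a number, or Rplp0, Rplp1, Rplp2 or Rpsa, with the Rps6k kinases left out. This gave 66 of 19896 named genes, read by 84 probes, with 42 genes named for the 60S subunit and 24 for the 40S subunit. Of the 66, 58 encode standard proteins of the ribosome, 37 in the 60S and 21 in the 40S subunit. A further 6 are paralogs of a standard protein (Rpl3l, Rpl7l1, Rpl22l1, Rpl36al, Rpl39l and Rps27l). The other two, Rps19bp1 and Rps23rg1, meet the rule by name only: the first encodes a protein that binds Rps19, the second is a retrogene of Rps23. Rplp1 was not analysed here. The livers came from 3 mice labelled as knockouts of the cytosolic malic enzyme gene Me1 (Mod1 in the titles), numbered 27, 31 and 33, and from 5 wild-type mice, numbered 14, 15, 21, 22 and 26. The labels give no strain, age, sex or diet, and do not say how the gene was altered. Each mouse was hybridised on 2-colour arrays together with pooled liver RNA of 5 wild-type mice, so each value is a log2 ratio of a mouse to that pool and gives no level.

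A cytosolic ribosome consists of a small 40S and a large 60S subunit, each a scaffold of ribosomal RNA with its own set of proteins. The small subunit reads the mRNA, and the large subunit joins the amino acids. Cells make the proteins of both subunits in matched amounts, mostly from a single working gene each, and their mRNAs rank among the most abundant of a liver cell. These mRNAs typically begin with a C followed by a stretch of C and U, the terminal oligopyrimidine (TOP) tract, through which the mTORC1 kinase and the protein LARP1 set their translation and stability. Most ribosomal protein genes also have many processed pseudogenes of nearly the same sequence, so a probe may read more than 1 locus.

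The start sites of members whose values are described below are shown because the TOP tract is the sequence feature that defines these mRNAs. Each line gives 15 bases before and 15 bases from the RefSeq start on (GRCm38.p6), 5′ to 3′ on the gene's strand, with the longest run of C and T in capitals.
Rpl27a, chr7:109519180-109519209, plus strand: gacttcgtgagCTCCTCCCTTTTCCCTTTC
Rpl35a, chr16:33056467-33056496, plus strand: gcggggcttgCCTTCCTCTTTCCgccatct
Rpl34, chr3:130730323-130730352, minus strand: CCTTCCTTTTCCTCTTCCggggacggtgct
Rpl22l1, chr3:28805493-28805522, plus strand: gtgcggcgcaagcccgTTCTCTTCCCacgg
Rps24, chr14:24490663-24490692, plus strand: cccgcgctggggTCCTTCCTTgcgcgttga
Rps27, chr3:90213634-90213663, minus strand: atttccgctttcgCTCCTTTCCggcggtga
Rps6, chr4:86857353-86857382, minus strand: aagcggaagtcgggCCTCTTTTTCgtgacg
Rplp2, chr7:141447636-141447665, plus strand: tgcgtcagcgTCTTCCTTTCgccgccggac
Rpl10, chrX:74270801-74270830, plus strand: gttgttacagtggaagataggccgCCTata
Rps4x, chrX:102189377-102189406, minus strand: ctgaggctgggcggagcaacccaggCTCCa
For Rpl34, Rpl35a and Rps24, which have several RefSeq starts, the start with the longest run is shown. Rpl10 and Rps4x have no long run in this window. A RefSeq start was available for 55 of the 66 genes. A run of at least 8 bases that are each C or T lay within the 30 bases, on the gene's own strand, in 24 of these 55 genes (43.6%), against 13.6% of 66 mitochondrial ribosomal protein genes and 13.9% of all 27025 genes with an entry. A start at exactly a C with 4 further C or T bases was found in 12 of the 55 (21.8%) and in 3.01% of all genes. The run in capitals may lie partly or wholly before the start, as most of it does in Rpl34. Bases before the start are not part of an mRNA that begins there, so a run is not by itself a TOP tract. These letters describe the RefSeq starts only, which may differ from the starts used in liver.

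Neither the direction nor the base of the ratios is stated with the values. Read as log10 of mouse over pool, the mean ratio over the wild-type mice had a median of 0.999 over the most variable probes, against 1.33 for the opposite direction and 0.968 for log2. This reading holds only if the pool was made from these same 5 wild types, which is not given, and the knockout arrays lie outside the check. Of the 28 pairs of arrays, 3 correlated below -0.3, namely wild-type mouse 14 with knockout mouse 33 (r = -0.394), wild-type mouse 22 with wild-type mouse 26 (-0.459) and wild-type mouse 14 with wild-type mouse 22 (-0.322). If the pool was made from these same 5 wild types, negative r between wild types can arise without a turned array, so these pairs cannot show one. The direction is settled for none of the arrays, the wild types included. Only a turn of the knockouts against the wild types was tried, and the main comparisons are repeated after turning the signs of the 3 knockout arrays. The SD of the log2 ratios over all probes ran from 0.185 to 0.273 in the knockout arrays and from 0.127 to 0.291 in the wild-type arrays, with wild-type mouse 22 widest. Me1 itself, read by 1 probe, had log2 ratios of 0.82, -0.81 and -0.68 in knockout mice 27, 31 and 33, against -1.73 to 0.82 in the wild types, and did not separate the genotypes (difference 0.086, exact two-sided permutation p = 0.875, smallest possible 0.0179). The difference was 0.535 with the knockout signs turned. Whether that probe reads sequence that the alteration removes is not given, so it may check nothing about the labels.

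Most ribosomal protein genes stood slightly higher in the knockout livers, by a few percent, and none passed the test. The fitted difference, knockout minus wild type, was above 0 in 56 of 66 genes and below 0 in 10, with a median of 0.079 on the log2 scale and a range from -0.184 to 0.699. Over all 36169 features tested, 55.3% were above 0 and the median difference was 0.013. In limma with Benjamini-Hochberg adjustment over all features, 0 of the 66 genes had an adjusted p under 0.05, where 0.0276% of all features did, and the lowest adjusted p was 0.416. At an unadjusted p under 0.05, 9 were higher (13.6%, against 4.26% of all features) and 2 lower (3.03%, against 5.02%). In bulk tissue, a different share of cells of a type and a different amount of RNA per cell cannot be told apart. With the knockout signs turned, 58 of the 66 differences were negative and 8 positive, with a median of -0.128. Then 0 passed (0.0221% of all features), 23 were lower and 1 higher at an unadjusted p under 0.05 (against 5.52% and 5.96% of all features), and the lowest adjusted p was 0.286.

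The shift was of similar size in all 3 knockout mice, and 1 wild-type mouse had it too. The median over the 66 genes was 0.094, 0.126 and 0.091 in knockout mice 27, 31 and 33, against -0.049, -0.019, 0.0088, 0.15 and 0.022 in wild-type mice 14, 15, 21, 22 and 26. Wild-type mouse 22 thus had the highest median of all 8 mice, and the other 4 wild types lay below every knockout. The share of the 66 genes with a positive ratio was 81.8%, 84.8% and 77.3% in the knockouts, against 21.2%, 39.4%, 54.5%, 78.8% and 59.1% in the wild types in the same order. Over all named genes that share ran from 49.6% to 53.1% in the knockouts and from 44.5% to 57.9% in the wild types. The mean of the mouse medians was 0.104 ± 0.019 (SD, n = 3) in the knockouts and 0.023 ± 0.076 (SD, n = 5) in the wild types. Their difference of 0.081 became 0.113 without wild-type mouse 22 and -0.126 with the knockout signs turned.

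**Figure D1:**
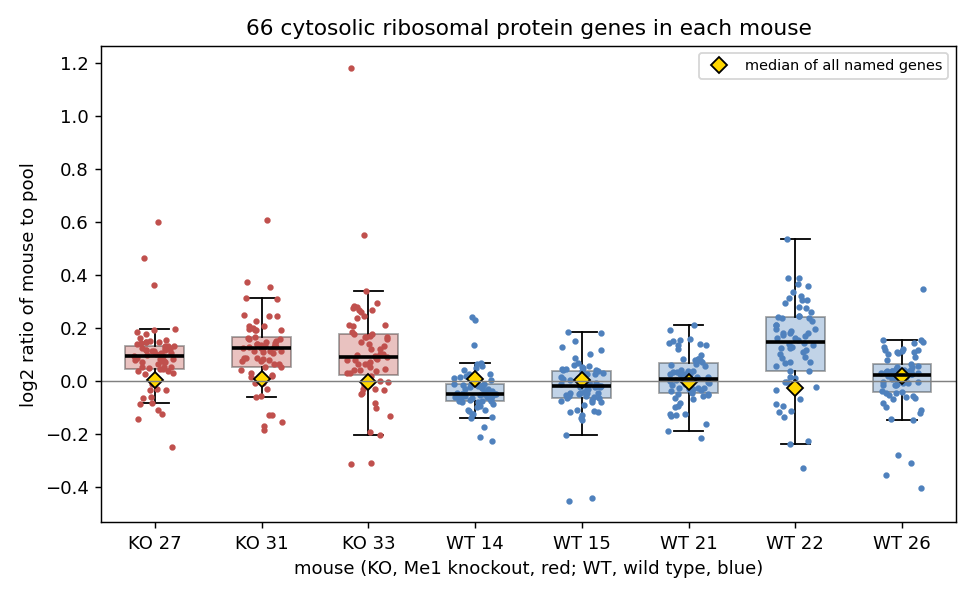
Log2 ratio to the pool of each of the 66 cytosolic ribosomal protein genes (points) in each mouse, with boxes for median and quartiles, whiskers to the last value within 1.5 box lengths, and diamonds for the median of all named genes. The boxes of knockout mice 27, 31 and 33 and of wild-type mouse 22 sit above the diamonds, that of wild-type mouse 14 below, and those of the other wild types span them.

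With the signs as deposited, the number of genes that separated the groups depended on mouse 22. That mouse was singled out for its high values in these same genes, and leaving out a wild type can only keep or raise such a count. The rise without it therefore follows in part from that choice. With the knockout signs turned, the count of genes wholly below the wild types was the same with and without it. All 3 knockout values lay above all 5 wild-type values in 5 of the 66 genes (7.58%, against 4.35% of all features) and below them in 1 gene (1.52%, against 2.85%). Without mouse 22, all knockout values lay above those of the other 4 wild types in 26 genes (39.4%), against 9.13% of all features. With the knockout signs turned and mouse 22 left out, 24 genes lay wholly below the other wild types (36.4%, against 10.5% of all features) and 2 wholly above (3.03%, against 4.62%). The count at an unadjusted p under 0.05 was 28 higher without mouse 22, where 7.7% of all features were, and 3 higher without knockout mouse 33, where 2.49% of all features were. Over all 8 mice with the knockout signs turned, 24 genes lay wholly below the wild types (36.4%, against 7.05% of all features) and 1, Rps19bp1, wholly above (1.52%, against 3.78%). Mouse 22 held the highest value of all mice in 27 of the 66 genes, and mouse 14 the lowest in 26. The same shares over all features were not determined, and mouse 22 had the widest array (SD 0.291). These counts therefore cannot be read as particular to the ribosomal protein genes. The SD over the 5 wild types had a median of 0.108 over the 66 genes, close to the 0.109 over all named genes, and ran from 0.038 for Rps23 to 0.391 for Rpl29.

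**Figure D2:**
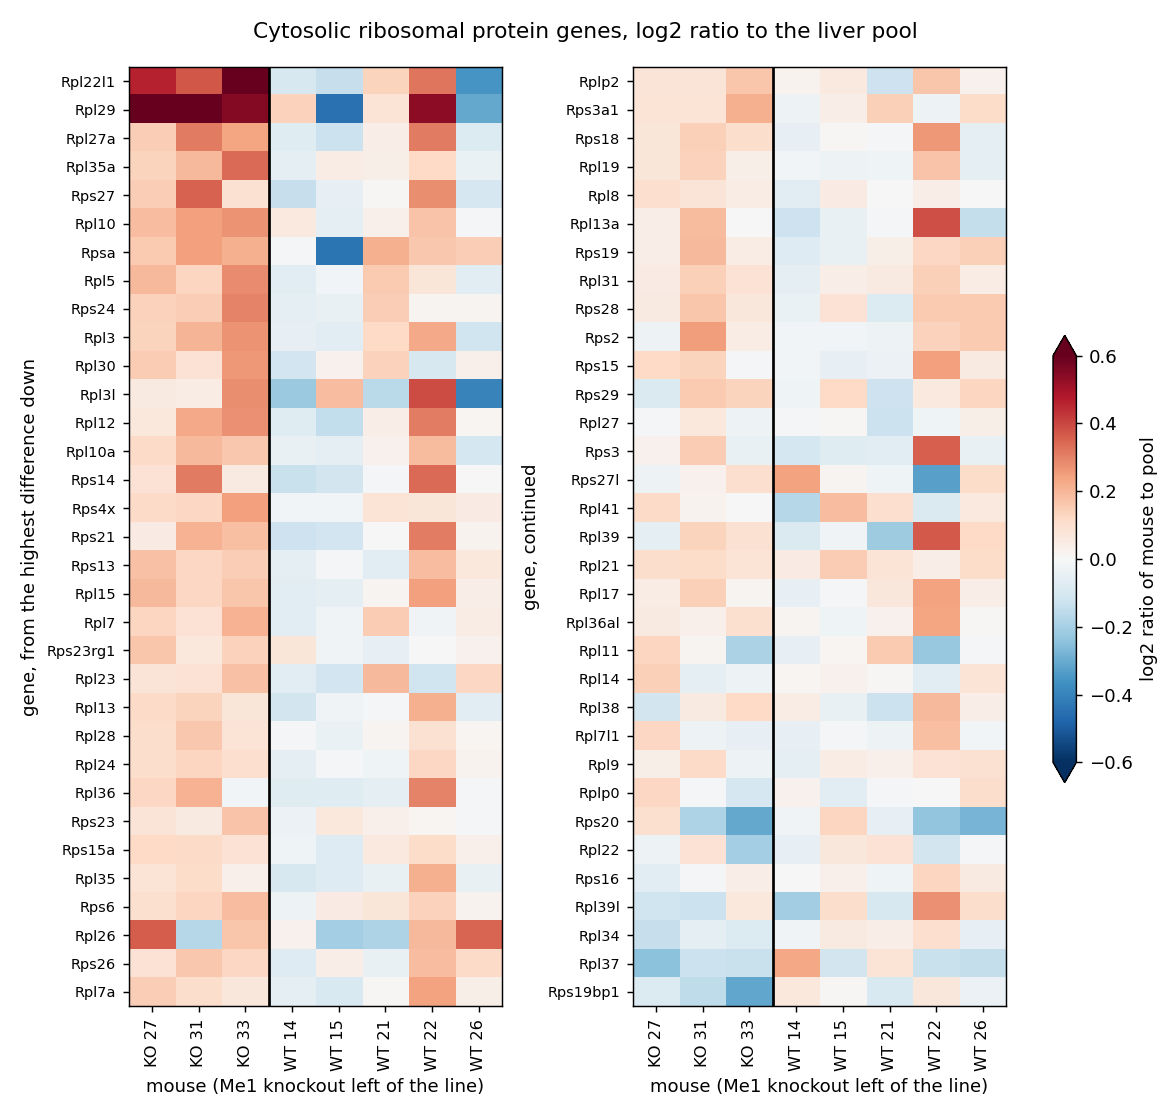
Log2 ratio to the pool of every cytosolic ribosomal protein gene (rows, from the highest difference between genotypes down, in 2 panels) in every mouse (columns, knockouts left of the line); colours saturate at 0.6. Rpl22l1 and Rpl29 stand out in the knockouts with values from 0.374 to 1.182, and the column of wild-type mouse 22 is red for most genes.

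The genes were split by subunit, with no test between them. The 37 standard 60S genes had a median difference of 0.079, with 32 above and 5 below 0, and the 21 standard 40S genes a median of 0.081, with 19 above and 2 below. The median of the 60S genes was 0.108, 0.113 and 0.080 in knockout mice 27, 31 and 33, against -0.054, -0.022, 0.029, 0.145 and 0.011 in wild-type mice 14, 15, 21, 22 and 26. For the 40S genes it was 0.086, 0.148 and 0.103 in the knockouts, against -0.037, -0.018, -0.012, 0.140 and 0.047 in the wild types. In both subunits wild-type mouse 22 lay within or above the range of the knockouts and the other wild types lay below it. With the sign turned, the medians of the differences were -0.124 for the 60S and -0.151 for the 40S genes. In the 24 genes with a run of at least 8 C or T bases anywhere in the 30-base window, the median difference was 0.083 (23 above 0). In the 31 genes with an entry and no such run it was 0.042 (23 above 0). With the knockout signs turned the medians were -0.132 and -0.118, and the gap between the sets of genes was not tested.

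Among the 60S proteins, Rpl10, which sits near the site where the tRNAs meet and joins the subunit late in its assembly, had the smallest p. Its log2 ratio was 0.186, 0.247 and 0.268 in knockout mice 27, 31 and 33, against 0.059, -0.056, 0.029, 0.170 and -0.013 in wild-type mice 14, 15, 21, 22 and 26. All knockouts lay above all wild types, with mouse 22 nearest. The difference was 0.196 ± 0.058 (SE of the limma fit), a ratio of 1.15, with a 95% interval from 0.063 to 0.329 and an adjusted p of 0.416. Rpl35a, read by 3 probes, had 0.132, 0.194 and 0.341 in the knockouts, against -0.058, 0.042, 0.033, 0.119 and -0.042 in the wild types. Its groups did not overlap either, and the difference was 0.203 ± 0.063 (adjusted p = 0.433). That separation holds for the average of the probes. In probe 10018178664 knockout mouse 27, at 0.069, lay below wild-type mice 15 (0.086) and 22 (0.135), while the other probes did not overlap. RPL35A is 1 of the genes mutated in the human anaemia named after Diamond and Blackfan, in which ribosome assembly fails in red cell precursors.

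Rpl29, a surface protein of the large subunit that is not essential in mice, had the widest gap of the standard members. It stood at 0.60, 0.609 and 0.551 in knockout mice 27, 31 and 33, against 0.137, -0.449, 0.081, 0.538 and -0.308 in wild-type mice 14, 15, 21, 22 and 26. The knockouts were close together while the wild types spread over almost 1 log2 unit, and mouse 22 reached nearly the knockout level. The difference was 0.587 ± 0.203, a ratio of 1.5, with an interval from 0.121 to 1.053 (adjusted p = 0.479). Against the pool alone, without the wild types, Rpl29 was the only 1 of the 66 genes to pass in limma (0.587, adjusted p = 0.0229), where 0.594% of all features did, a test that leaves out the spread of the wild types. Rpl27a, in the same subunit, was at 0.146, 0.310 and 0.237 in the knockouts, against -0.073, -0.127, 0.041, 0.312 and -0.083 in the wild types. Only mouse 22 of the wild types lay within the range of the knockouts or above it (difference 0.217 ± 0.102, adjusted p = 0.557).

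A few 60S genes were lower in the knockouts. Rpl34 had -0.140, -0.059 and -0.081 in knockout mice 27, 31 and 33, against -0.023, 0.052, 0.041, 0.103 and -0.051 in the wild types, so that all 3 knockouts lay below all 5 wild types. Its difference was -0.118 ± 0.049 (adjusted p = 0.525). Rpl37, a small zinc-binding protein, had -0.246, -0.128 and -0.132 in the knockouts, against 0.233, -0.110, 0.080, -0.136 and -0.145 in the wild types. Here 2 wild types lay within the knockout range, and the difference of -0.153 ± 0.095 had an adjusted p of 0.645.

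Rpl5 and Rpl11 travel together with the 5S ribosomal RNA into the large subunit and, when free, bind the p53 inhibitor Mdm2. They did not share a pattern. Rpl5 had 0.194, 0.129 and 0.286 in knockout mice 27, 31 and 33, against -0.068, -0.019, 0.157, 0.071 and -0.065 in wild-type mice 14, 15, 21, 22 and 26, with only wild-type mouse 21 inside the knockout range. Its difference was 0.187 ± 0.067 (adjusted p = 0.485). Rpl11 ran from -0.192 to 0.129 in the knockouts and from -0.226 to 0.158 in the wild types, a difference of 0.0069 ± 0.098 with an interval from -0.218 to 0.232.

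In the stalk that recruits the elongation factors, Rplp0, often used as a reference gene in quantitative PCR, had 0.126, -0.0073 and -0.099 in the knockouts, against -0.061 to 0.104 in the wild types. Its difference was -0.0055 ± 0.062 (95% interval from -0.147 to 0.136). Rplp2, a stalk protein bound to it, had 0.078, 0.078 and 0.168 in the knockouts, against -0.125 to 0.165 in the wild types (difference 0.079 ± 0.066). For both genes the groups overlapped. Rpl13a, another common reference gene, had 0.038, 0.192 and 0.0017 in the knockouts and 0.388 in wild-type mouse 22, with the other wild types from -0.143 to -0.014 (difference 0.064 ± 0.121). Rpl22, an RNA-binding protein on the surface of the large subunit, ran from -0.202 to 0.087 in the knockouts and from -0.110 to 0.085 in the wild types (difference -0.045 ± 0.075).

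In the small subunit, Rps24 and Rps4x came first by p. Rps24, needed for processing of the 18S rRNA precursor, had 0.141, 0.148 and 0.296 in knockout mice 27, 31 and 33, against -0.058, -0.042, 0.146, 0.016 and 0.017 in wild-type mice 14, 15, 21, 22 and 26. Mouse 21 alone among the wild types reached the knockout range, and mouse 22 did not. The difference was 0.179 ± 0.062 (adjusted p = 0.480). Rps4x, encoded on the X chromosome, had 0.117, 0.126 and 0.245 in the knockouts, against -0.018, -0.018, 0.084, 0.073 and 0.047 in the wild types. Its groups did not overlap, with a difference of 0.129 ± 0.050 (adjusted p = 0.508).

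Rps6, the protein that the S6 kinases downstream of mTORC1 phosphorylate, had 0.095, 0.128 and 0.186 in the knockouts, against -0.030, 0.047, 0.071, 0.140 and 0.021 in the wild types. Mouse 22 lay within the knockout range (difference 0.086 ± 0.050, adjusted p = 0.626). Rps27, with a zinc finger, had 0.15, 0.354 and 0.090 in the knockouts, against -0.139, -0.050, 0.0086, 0.279 and -0.099 in the wild types (difference 0.198 ± 0.104, adjusted p = 0.587). Again mouse 22 was the 1 wild type within the knockout range. Rps19, the gene first linked to Diamond-Blackfan anaemia in humans, ran from 0.040 to 0.194 in the knockouts and from -0.079 to 0.143 in the wild types (difference 0.055 ± 0.069). Rpsa, which is also known as a laminin receptor, was at 0.156, 0.246 and 0.213 in the knockouts. Its wild types had -0.0086, -0.440, 0.213, 0.163 and 0.149, so that mouse 15 stood far below the others (difference 0.190 ± 0.142, adjusted p = 0.699).

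**Figure D3:**
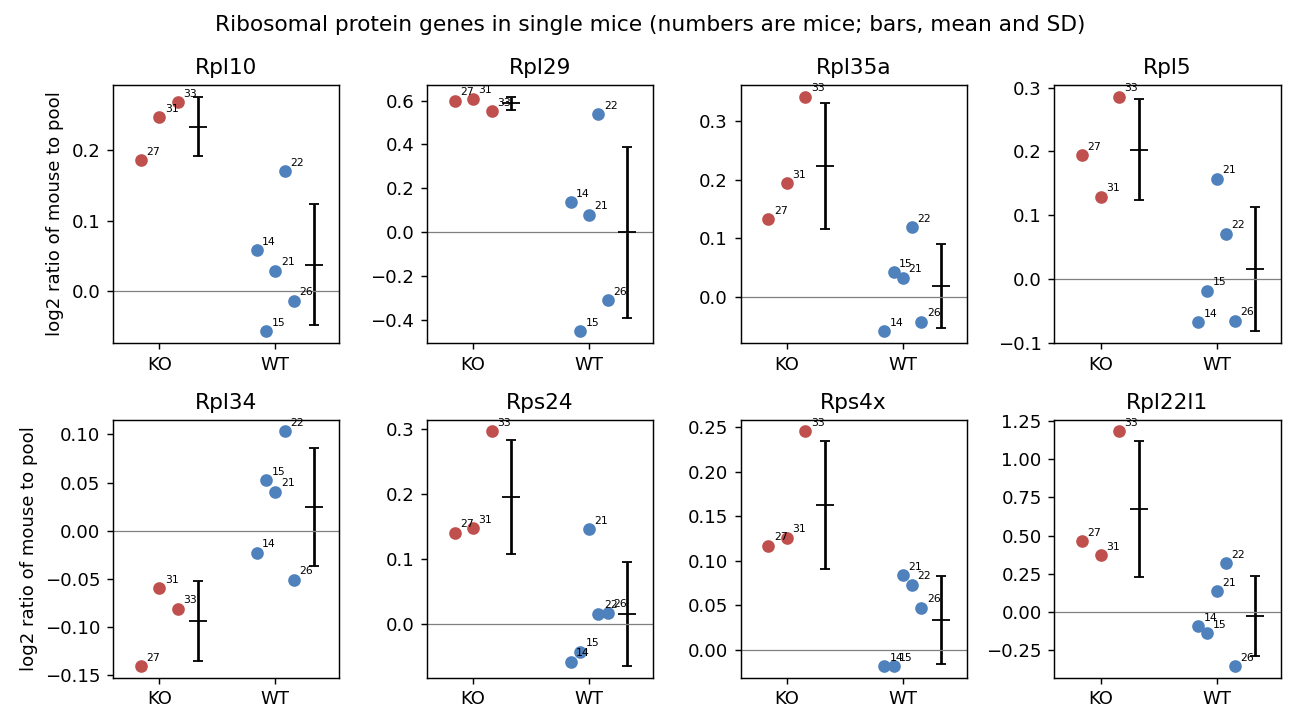
Log2 ratio to the pool in single mice (points, numbered; knockout left, wild type right of it) for 8 genes among the 10 with the smallest p, with mean and SD as bars; the vertical scales differ between panels. In Rpl10, Rpl29 and Rpl22l1 wild-type mouse 22 is the wild type nearest to the knockouts, and in Rpl5 and Rps24 it is mouse 21.

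Of the paralogs, Rpl22l1 had the highest difference of all 66 genes. It encodes a close relative of Rpl22 that can take its place in the ribosome, and in mice loss of Rpl22 is known to raise it. The log2 ratio was 0.463, 0.374 and 1.182 in knockout mice 27, 31 and 33, against -0.094, -0.137, 0.136, 0.320 and -0.352 in wild-type mice 14, 15, 21, 22 and 26. All knockouts lay above all wild types, and mouse 33 stood well above the other two. The difference was 0.699 ± 0.211, a ratio of 1.62, with an interval from 0.215 to 1.182 (adjusted p = 0.424). Rpl22 itself had -0.031, 0.087 and -0.202 in knockout mice 27, 31 and 33. Its value was thus the lowest of all mice in mouse 33 and the highest in mouse 31, while Rpl22l1 was raised in both. A link between the 2 genes was not tested. Rpl3l, the relative of Rpl3 made in muscle, spread from -0.403 to 0.389 in the wild types and lay between 0.043 and 0.278 in the knockouts (difference 0.168 ± 0.175). Rpl39l, a testis-enriched relative of Rpl39, ran from -0.127 to 0.065 in the knockouts and from -0.211 to 0.275 in the wild types (difference -0.096 ± 0.111). Rps27l, a p53-inducible relative of Rps27, lay between -0.030 and 0.102 in the knockouts and between -0.326 and 0.243 in the wild types (difference 0.029 ± 0.116). Unlike most members, Rps27l was lowest in mouse 22.

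The genes that meet the rule by name only went opposite ways. Rps19bp1 had -0.081, -0.154 and -0.312 in the knockouts, against 0.064, 0.0083, -0.092, 0.068 and -0.036 in the wild types, the lowest difference of the 66 genes (-0.184 ± 0.065, adjusted p = 0.483). Wild-type mouse 21 lay within its knockout range. Rps23rg1 had 0.165, 0.065 and 0.141 in the knockouts, against -0.048 to 0.070 in the wild types (difference 0.119 ± 0.046, adjusted p = 0.508). Its parent gene Rps23 differed by 0.088, with values of opposite sign to those of the retrogene in every wild-type mouse, both close to 0 in mouse 22. Whether probes of either gene read the other was not tested.

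**Figure D4:**
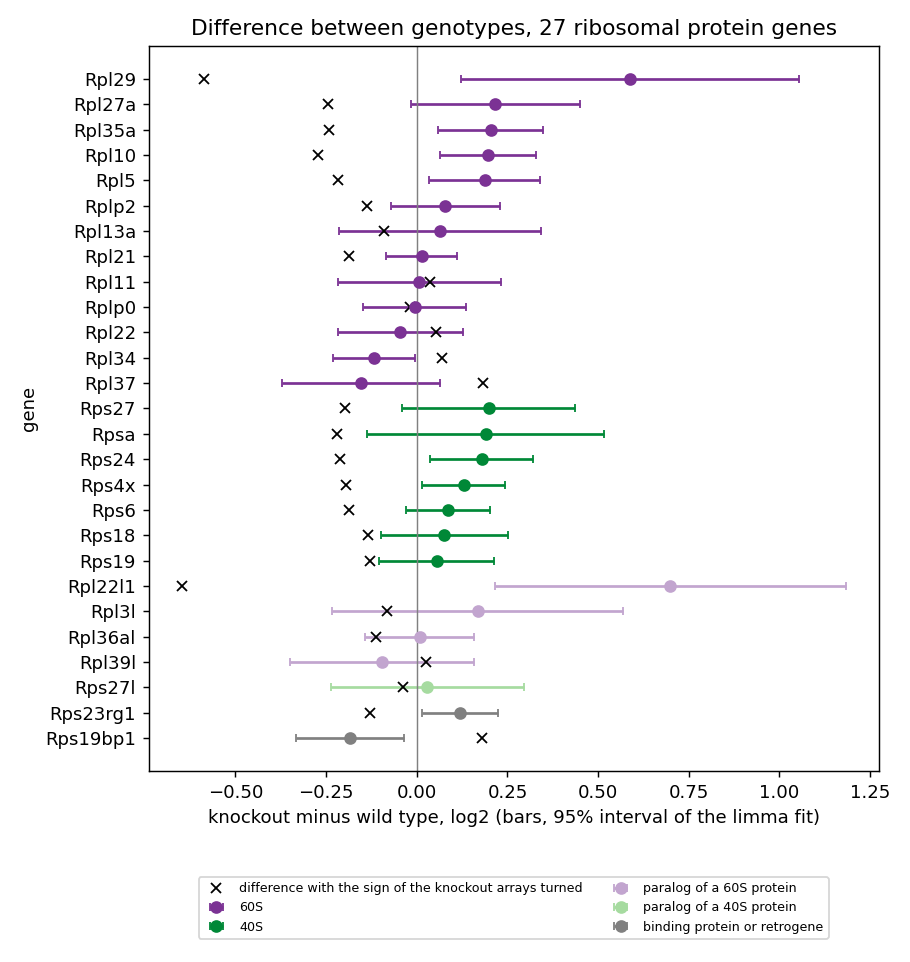
Log2 difference, knockout minus wild type, for 27 ribosomal protein genes (points, with the 95% interval of the limma fit), grouped by subunit and kind, and the same difference with the knockout signs turned (crosses). Rpl29 (0.587) and Rpl22l1 (0.699) lie furthest right; 25 of the 27 genes lie between -0.184 and 0.217, and the crosses fall on the other side of 0 for every gene but Rpl11 and Rplp0.

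For 16 of the 66 genes more than 1 probe was present. In 8 genes the probes' differences lay within 0.05 of each other and in 5 they lay at least 0.1 apart, while 5 genes had probes of both signs. Over the 8 mice the lowest r between probes of a gene was above 0.9 in 8 genes and under 0.5 in 7, among them Rpl28 (0.220), whose differences lay within 0.05, Rps15a (0.012) and Rpl27 (-0.217). The probes of Rps27 gave 0.197 and 0.199, those of Rpl5 0.179 and 0.196, and those of Rps24 0.168 and 0.190. The 3 probes of Rpl35a gave 0.153, 0.224 and 0.233. By contrast, the probes of Rpl36al gave -0.091 and 0.107, those of Rps18 -0.019 and 0.172, and those of Rpl21 -0.081 and 0.108. In each of these last 3 genes the sign depended on the probe, so that their averages (0.0079 ± 0.065, 0.076 ± 0.076 and 0.013 ± 0.042) say little about direction. In Rpl21, 1 probe stood at 0.362 in wild-type mouse 15 and the other at -0.061. Which transcripts or pseudogenes the disagreeing probes read was not tested.

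**Figure D5:**
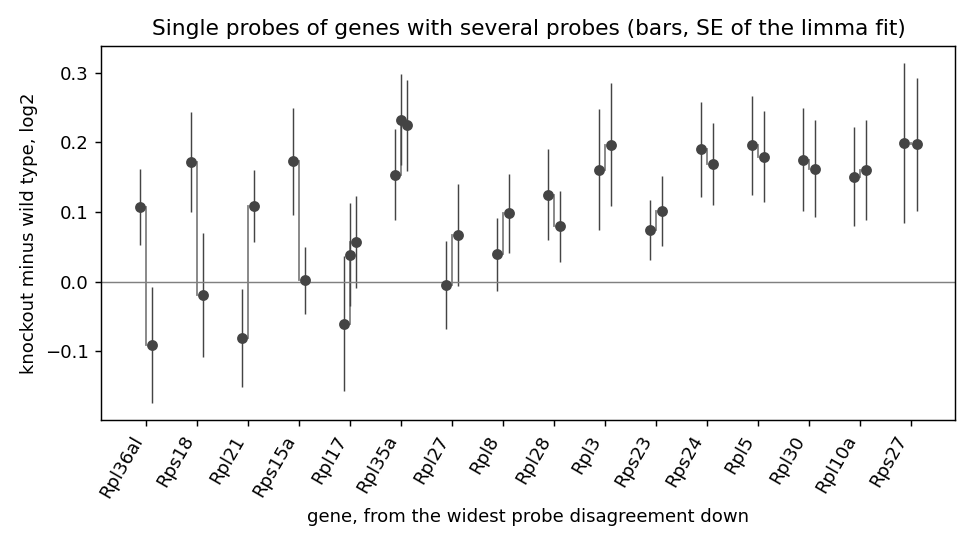
Log2 difference, knockout minus wild type, of each probe (points, with the SE of the limma fit) of the 16 genes with several probes, ordered by how far their probes lie apart. The probes of Rpl36al, Rps18 and Rpl21 fall on both sides of 0, while those of Rps27, Rpl10a, Rpl30 and Rpl5 nearly coincide.

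The members varied together across mice to a degree that differed between them. Each gene was set against the median of the others over the 8 mice, as a description, since the mice share 1 pool and the genes share arrays. Pearson's r was above 0.8 in 26 of the 66 genes, had a median of 0.638 and was below 0 in 11. Rpl24 (r = 0.969), Rpl35 (0.958) and Rpl13 (0.950) followed the common pattern most closely, and Rps27l (-0.681), Rpl37 (-0.680), Rps20 (-0.478) and Rpl11 (-0.382) ran against it. Among features outside the 66, 3.65% had r above 0.8 with the members' median. With the knockout signs turned, r was above 0.8 in 28 genes (9.0% of the other features), with a median of 0.766. With the signs as deposited, 5 features outside the 66 were most like the members' median. They were 4 probes without a gene symbol, 10024400746 (r = 0.983), 10024402585 (0.981), 10018175876 (0.978) and 10028170517 (0.976), and the RIKEN gene 7420701I03Rik (0.982). The next named genes were Zscan29 (0.974), Eef1b2 (0.964), Banp (0.964) and Sprr4 (0.958). Of these Eef1b2 alone is a gene of translation, a subunit of the elongation factor that reloads eEF1A. Its ratios were 0.065, 0.131 and 0.098 in the knockouts, against -0.072, -0.049, 0.034, 0.164 and 0.043 in the wild types.

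Other lists of translation genes were set beside the ribosomal proteins, and 0 of their genes passed (0.0276% of all features). Of the elongation and termination factors 7 of 10 were above 0 (median 0.055), as were 16 of 39 initiation factors (median -0.028) and 11 of 17 other TOP mRNAs (median 0.029). Among 79 ribosome biogenesis factors 37 were above 0 (median -0.0072), among 17 subunits and factors of RNA polymerase I 9 (median 0.011), and among 75 mitochondrial ribosomal proteins 37 (median -0.00053). Of 38 proteasome subunits, another large complex, 15 were above 0 (median -0.033). The lists overlap: Eef1d counts among both the elongation factors and the other TOP mRNAs, and Eif3k among both the initiation factors and the other TOP mRNAs. The differences between these lists and the cytosolic ribosomal proteins were not tested. With the sign turned, the medians were -0.034, 0.020, -0.047, 0.018, -0.0063, 0.00084 and 0.020 in the same order of lists.

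The single genes named from these lists were those with the smallest p of each list. That choice favours wide differences, so their size cannot be set against that of the ribosomal proteins as a whole. Eif2b3, a subunit of the exchange factor that reloads eIF2, had 0.394, 0.322 and 0.458 in knockout mice 27, 31 and 33, against -0.047 to 0.091 in the wild types, and the lowest adjusted p of the lists (0.390 ± 0.051, adjusted p = 0.0849). Eif2b2, another subunit of the same factor, stood at -0.249 ± 0.070 and the initiation factor subunit Eif3k at -0.169 ± 0.054. Eef2k, the kinase that slows elongation, stood at 0.153 ± 0.042, the termination factor Gspt1 at 0.20 ± 0.058 and the exchange factor subunit Eef1d at -0.133 ± 0.067. Fau, which encodes a 40S protein fused to a ubiquitin-like domain and lies outside the naming rule, stood at 0.147 ± 0.080. It had 0.161, 0.301 and 0.045 in the knockouts, against -0.049, -0.031, 0.038, 0.203 and -0.051 in the wild types, with mouse 22 again the highest wild type.

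In ribosome production, the helicase Ddx47 stood at 0.190 ± 0.053, the exosome nuclease Exosc10 at -0.407 ± 0.160 and the nucleolar factor Tcof1 at -0.246 ± 0.110. Of the polymerase genes, Polr2l stood at -0.347 ± 0.119, Polr1e at -0.192 ± 0.091 and Taf1a at 0.133 ± 0.078. Among 32 regulators around mTORC1 and MYC, 16 were above 0 (median -0.0061, and 0.051 with the sign turned). The kinase gene Mtor had -0.672, -0.665 and -1.025 in the knockouts, against 0.244, 0.046, -0.465, -0.354 and 0.351 in the wild types, so that all knockouts lay below all wild types (difference -0.752 ± 0.202, adjusted p = 0.380). Akt1 stood at -0.174 ± 0.058 and Sesn1, an inhibitor of mTORC1, at 0.290 ± 0.063. Of the mitochondrial ribosomal proteins, Mrpl20 stood at 0.535 ± 0.118, Mrpl3 at 0.253 ± 0.064 and Mrps23 at -0.744 ± 0.214, and of the proteasome, Psmd8 at -0.257 ± 0.074, Psmd2 at -0.151 ± 0.054 and Psmd7 at -0.191 ± 0.080.

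Markers of other cell types moved between the same mice. Of 10 lymphocyte markers 9 were above 0, and their median per mouse was 0.127 to 0.268 in the knockouts, against -0.099 to 0.060 in the wild types. In wild-type mouse 22, where the ribosomal protein genes were highest, the lymphocyte median was -0.099, the lowest of all mice. Of 7 stellate cell markers 5 were below 0, with medians of -0.783 to -0.649 in the knockouts, against -0.797 to 0.294 in the wild types, and mouse 22 was the lowest. Of 8 proliferation genes 6 were below 0 (medians of -0.381 to -0.074 in the knockouts, against -0.261 to 0.269 in the wild types). Of 10 Kupffer cell markers 8 were below 0, with medians of -0.238 to -0.099 in the knockouts, against 0.348 in wild-type mouse 22 and -0.350 to 0.156 in the other wild types. Of 6 erythroid markers 4 were below 0, with medians of -0.355 to -0.201 in the knockouts, against 0.754 in wild-type mouse 22 and -0.725 to -0.0058 in the other wild types. Mouse 22 was thus the highest of all mice in the Kupffer cell and erythroid markers, as it was in the ribosomal protein genes. With the knockout signs turned, the median difference was -0.216 for the lymphocyte markers (9 of 10 below 0), 0.661 for the stellate, 0.333 for the proliferation (8 of 8 above 0), 0.228 for the Kupffer cell and 0.388 for the erythroid genes. Of 8 endothelial markers 5 were above 0, with medians of -0.0017 to 0.118 in the knockouts, against -0.080 to 0.029 in the wild types. Mouse 22 was the lowest of all mice in these. Of 5 cholangiocyte markers 2 were above 0, with medians of -0.075 to 0.0030 in the knockouts, against -0.089 to 0.027 in the wild types. Turned, the median differences were -0.068 and 0.0054. Medians of 5 hepatocyte markers ran from -0.015 to 0.065 in the knockouts and from -0.024 to 0.024 in the wild types. Ratios to a liver pool give no level, so the tissue could not be checked against its markers. These medians are a description, and the part of these cell types in the ribosomal protein values was not tested.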

How the data were processed

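Total RNA from the livers of 3 Me1 knockouts and 5 wild types was purified on spin columns, amplified with aminoallyl labelling and hybridised against the wild-type pool with Cy3 and Cy5, per the labels. The deposited values, 1 column per mouse, were taken as log10 ratios. Dyes were swapped, per the series' design text. Not given in the sources used here are the merging of swapped arrays, the background correction, the normalization and whether the pool was made from the same 5 wild types. Values were put on the log2 scale. Symbols came from the platform annotation (23283 of 39556 probes had 1 symbol, 0 several and 16273 none), and 6594 were updated through GRCm38.p6 synonyms. Among the 66 members 7 were listed under older names. Probes of 1 symbol were averaged, giving 36169 features with the unnamed probes kept singly. The genotypes were compared with lmFit and eBayes of limma 3.58.1 under R 4.3.3, p-values were adjusted by Benjamini-Hochberg across the whole table, and the fit was tested on simulated data. No spot brightness was used, so no filter on dim probes was possible, and the number of arrays limits the precision.

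The members and the lists were chosen with earlier results of these data known, so no test over a list is given. Named genes were the 10 members with the smallest p, the 4 highest and 4 lowest differences, the 3 with the widest wild-type SD, the 3 whose probes disagreed most, a fixed set by role, and the 3 smallest p of each other list. Likeness to the members' median was read over the 5 features with the highest r. Zscan29, Eef1b2, Banp, Sprr4 and the members named for their r or their spread were chosen after their values were seen. Alternatives covered the sign of the knockout arrays, the base of the logarithm, centring, quantile normalization, array weights, the variance model, the choice of probe and symbol, the pool as reference, the members counted, and single mice left out.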

Additional observations from a re-analysis of the deposited data

Results flagged for a closer look

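In 4 of the 49 named genes 1 wild-type mouse lay far from the other 4. Wild-type mouse 22 stood apart as the highest in Rpl13a at 0.388, in Rps18 at 0.260 and in Rpl36al at 0.237, where the other wild types lay close together. Wild-type mouse 21 stood apart as the lowest in Eif2b2 at -0.114. Chance marks about 1 in 20 groups in this way. Over all 66 ribosomal protein genes 9 had such a mouse, and in each of the 9 it was wild-type mouse 22 with the highest value. The share of all features marked in this way was not determined. Mouse 22 also had the widest array (SD 0.291), and many of the 66 genes varied together. The count of 9 therefore cannot be read as particular to the ribosomal protein genes. The cause was not tested.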

How the results depend on the processing

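With the knockout signs turned, the median difference was -0.128 over the 66 genes, -0.124 over the 60S and -0.151 over the 40S genes, and -0.126 from the mouse medians. Then 8 genes were higher and 58 lower. At an unadjusted p under 0.05, 1 was higher (against 5.96% of all features) and 23 lower (against 5.52%). Without overlap, 1 was higher (against 3.78%) and 24 lower (against 7.05%). Of the 49 named genes, 47 changed sign. The differences below 0 (knockout minus wild type, log2) were Rpl10 -0.272, Rpl22l1 -0.648, Rpl35a -0.242, Rpl29 -0.586, Rps24 -0.210, Rpl5 -0.218, Rps23rg1 -0.128, Rps4x -0.196, Rpl27a -0.245, Rpl3l -0.083, Rpsa -0.220, Rpl36al -0.111, Rps18 -0.135, Rpl21 -0.186, Rplp2 -0.137, Rps6 -0.186, Rps19 -0.129, Rpl13a -0.090, Rps27 -0.198, Rps27l -0.037, Eef2k -0.153, Gspt1 -0.085, Eif2b3 -0.393, Fau -0.191, Taf1a -0.102, Ddx47 -0.216, Sesn1 -0.268, Mrpl20 -0.538 and Mrpl3 -0.179. Those above 0 were Rps19bp1 0.180, Rpl34 0.069, Rpl37 0.184, Rpl39l 0.026, Rpl22 0.052, Eef1d 0.093, Eif2b2 0.201, Eif3k 0.139, Polr2l 0.262, Polr1e 0.186, Exosc10 0.451, Tcof1 0.204, Mtor 0.823, Akt1 0.141, Mrps23 0.718, Psmd8 0.191, Psmd2 0.097 and Psmd7 0.176. The sign setting mirrors the knockout values at 0, which by itself turns most differences.

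Under the other settings the median difference over the 66 genes stayed between 0.024 (values read as log2, which only rescales them) and 0.118 (array weights), and between 0.065 and 0.113 with any 1 mouse left out. No member passed in any of these settings except Rpl29 (1 member) against the pool. With array medians at 0, 16 genes were lower and 2 without overlap higher (against 2.84% of all features). The share of all features on the same side stands in brackets after the counts that follow. Quantile normalization gave 15 higher (3.85%) and 1 lower (4.1%) at an unadjusted p under 0.05, 9 without overlap higher (3.29%) and 0 lower (2.74%), and 6 features called over the whole table. Array weights gave 30 higher (10.4%) at an unadjusted p, 207 features called, and 1 gene of the other lists, Eif2b3 (0.358, adjusted p = 0.0284). The pool as reference gave 31 higher (7.7%) at an unadjusted p, 215 features called and 1 gene of the other lists, the proteasome subunit Psmb9 (-0.484, adjusted p = 0.0363), named after its value was seen. With the least variable probe, fitted per probe, 16 of 39556 probes were called. With symbols as listed, 6 genes were lower, 0 of them at an unadjusted p (5.0%) or without overlap (2.84%), as 60 members were found by those symbols. With standard members alone, 1 was lower at an unadjusted p (5.02%). Without wild-type mouse 22 and knockout mouse 33, 24 were higher (5.52%) and 0 lower (6.17%) at an unadjusted p, 30 higher without overlap (13.9%), and 19 features were called. With 1 mouse left out in turn, 3 (without knockout mouse 33, 2.49%) to 28 (without wild-type mouse 22, 7.7%) were higher at an unadjusted p. Lower at an unadjusted p were 0 to 2, where the share of all features ran from 2.23% to 8.51%. Without overlap, 5 to 26 were higher (26 without wild-type mouse 22, 9.13%), where that share ran from 5.01% to 9.83%. From 1 to 2 were lower without overlap, where it ran from 3.13% to 7.45%. The features called ran from 6 (without wild-type mouse 14) to 65 (without wild-type mouse 22).

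Some genes near 0 also changed sign elsewhere. With array medians at 0, Rpl36al stood at -0.0080, Rpl21 at -0.0024 and Rpl11 at -0.0090. Quantile normalization gave -0.011 for Rpl21, 0.0086 for Rplp0 and -0.043 for Rps27l. Array weights gave 0.0035 for Rpl22 and -0.088 for Rps27l, the least variable probe -0.019 for Rps18, and the pool as reference 0.0064 for Rplp0 and -0.015 for Rpl11. Without mice 22 and 33, Rplp0 stood at 0.043, Rpl22 at 0.0049 and Rps27l at -0.088. With 1 mouse left out, Rpl36al ran from -0.012 to 0.054, Rpl11 ran from -0.065 to 0.095, Rps27l ran from -0.054 to 0.089, Rplp0 ran from -0.065 to 0.047 and Rpl22 ran from -0.113 to 0.032. Apart from the settings that show their cause by construction, the cause was not tested. No paired analysis was possible because the mouse numbers differ between the genotypes.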

Other observations

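Rpl26 and Rps20 are named here after their values were seen, because their mice differed widely within each genotype. Rpl26, which binds the mRNA of p53, had 0.363, -0.169 and 0.166 in knockout mice 27, 31 and 33, against 0.027, -0.202, -0.186, 0.196 and 0.349 in wild-type mice 14, 15, 21, 22 and 26. The mice thus spread over about the same range in both genotypes (difference 0.083 ± 0.160, or -0.157 with the knockout signs turned). Rps20 had 0.094, -0.183 and -0.309 in the knockouts, against -0.019, 0.130, -0.050, -0.235 and -0.278 in the wild types (difference -0.042 ± 0.118, or 0.223 with the knockout signs turned). Both genes were read by 1 probe each.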
